A study of Mus musculus with 13 samples.

Results

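The regions described here are 5653 stretches of mouse chromosome 6 that the authors listed as carrying H3K27me3 in SAFB1/2 double knockout (DKO) cells and not in wild type (WT) cells. They were taken from the deposited list of DKO-specific regions by their chromosome. They are among the 18837 entries of that list and make up 9.76% of the 57909 regions in the union of both genotypes. Chromosome 6 also holds 10698 regions listed as shared and 7698 listed as WT-specific. The members were chosen by their H3K27me3 in DKO against WT, so the H3K27me3 differences between genotypes below describe that choice and are given as values. Total H3 was counted over the same regions and carries the tests. As far as the labels say, it was not used by the selection, but the sources used here do not say how regions were called. The lists hold no score, so no member can be placed just inside or just outside the authors' threshold.

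The libraries were chromatin immunoprecipitations (ChIP-seq) from male embryonic stem cells (ESCs) of the CAST/B6 background with an exchange cassette at Rosa26 (Rosa26-RMCE). H3K27me3 was measured in 5 WT and 4 DKO libraries, total H3 in 2 of each genotype. Every group, the WT groups included, had 3 days of doxycycline before crosslinking with formaldehyde, and the sources used here do not say what the drug induces. Per the labels, DKO replicate 1 for H3K27me3 was clone 4, and the other 3 DKO libraries for H3K27me3 and both for total H3 were clone 13, so the DKO total H3 values come from 1 clone. No clone is named for the WT libraries. The library names of WT replicates 1, 4 and 5 share a stem that WT replicates 2 and 3 lack, and 4 of the 9 H3K27me3 libraries carry Old or New in their names, with a meaning not given in the sources used here. No label says that replicates were separate cultures, so the p-values cover the spread from library to library alone, and that spread may be technical.

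H3K27me3 is trimethylation of lysine 27 of histone H3, written by Polycomb repressive complex 2. In ESCs it is strongest over CpG islands at silent developmental genes, where it forms broad domains, and it also lies at a low level over gene-poor and intergenic chromatin. Total H3 follows the amount of nucleosomes and of recovered DNA, and serves as a background for the mark. Rosa26 is a ubiquitously expressed locus of chromosome 6 widely used to host transgenes. SAFB (SAFB1) and SAFB2 are nuclear proteins that bind RNA and matrix attachment DNA.

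Only 56 members (0.991%) overlapped a promoter. As examples of these, the promoters of 5 genes that a member overlaps are printed first. With them are those of 2 developmental genes that lie in shared regions. Each is the 250 bases upstream of a start site in RefSeq (GRCm38.p6), 5′ to 3′ on the strand of the gene, with each CG dinucleotide in capitals. The genes were picked after their values had been seen, to span the range of CG content. Mitf is a master transcription factor of melanocytes (chr6:97991533-97991782, plus strand), Cald1 encodes the actin-binding protein caldesmon (chr6:34598254-34598503, plus strand), and Clec4b1 encodes a C-type lectin receptor of immune cells (chr6:123049712-123049961, plus strand). Reg1 encodes a secreted protein of the exocrine pancreas (chr6:78425733-78425982, plus strand), and Cul1 the scaffold of SCF ubiquitin ligases (chr6:47454069-47454318, plus strand). Hoxa13 (chr6:52260881-52261130, minus strand) patterns the distal limb, and Gata2 (chr6:88193641-88193890, plus strand) acts in blood stem cells.
Mitf: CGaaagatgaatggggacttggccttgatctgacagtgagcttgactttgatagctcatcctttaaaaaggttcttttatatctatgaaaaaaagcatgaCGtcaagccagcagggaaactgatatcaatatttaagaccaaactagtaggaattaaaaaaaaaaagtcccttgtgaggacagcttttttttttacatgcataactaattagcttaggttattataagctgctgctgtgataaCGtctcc
Cald1: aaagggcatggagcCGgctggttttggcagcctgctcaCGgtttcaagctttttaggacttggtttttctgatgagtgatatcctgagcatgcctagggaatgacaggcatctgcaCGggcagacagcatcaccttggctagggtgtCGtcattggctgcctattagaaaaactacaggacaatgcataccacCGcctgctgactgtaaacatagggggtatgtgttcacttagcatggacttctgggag
Clec4b1: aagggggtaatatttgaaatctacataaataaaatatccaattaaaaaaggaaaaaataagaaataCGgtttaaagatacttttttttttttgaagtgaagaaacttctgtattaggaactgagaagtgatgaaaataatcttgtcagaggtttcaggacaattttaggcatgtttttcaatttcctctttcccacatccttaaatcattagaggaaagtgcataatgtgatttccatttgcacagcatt
Reg1: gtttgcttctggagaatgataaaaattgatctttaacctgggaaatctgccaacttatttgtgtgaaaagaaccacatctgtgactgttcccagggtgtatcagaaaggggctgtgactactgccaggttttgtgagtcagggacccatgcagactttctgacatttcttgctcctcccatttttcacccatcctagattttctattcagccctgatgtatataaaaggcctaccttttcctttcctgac
Cul1: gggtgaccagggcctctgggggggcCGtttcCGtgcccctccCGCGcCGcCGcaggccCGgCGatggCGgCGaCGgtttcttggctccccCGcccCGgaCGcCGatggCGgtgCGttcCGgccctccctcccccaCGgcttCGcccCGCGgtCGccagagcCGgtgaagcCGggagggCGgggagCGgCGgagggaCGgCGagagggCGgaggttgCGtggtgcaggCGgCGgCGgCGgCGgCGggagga
Hoxa13, in a shared region: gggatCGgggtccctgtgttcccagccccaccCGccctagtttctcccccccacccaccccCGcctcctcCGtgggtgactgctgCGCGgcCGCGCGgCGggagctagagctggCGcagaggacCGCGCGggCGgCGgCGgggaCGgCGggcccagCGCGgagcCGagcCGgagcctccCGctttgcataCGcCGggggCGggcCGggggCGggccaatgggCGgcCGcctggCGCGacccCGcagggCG
Gata2, in a shared region: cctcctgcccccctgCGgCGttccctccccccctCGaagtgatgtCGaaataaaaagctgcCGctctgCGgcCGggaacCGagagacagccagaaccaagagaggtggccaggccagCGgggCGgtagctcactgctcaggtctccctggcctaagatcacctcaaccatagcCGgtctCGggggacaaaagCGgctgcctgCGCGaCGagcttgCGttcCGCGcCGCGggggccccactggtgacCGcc
The first 4 of these members' sequences lie wholly inside their regions and hold 3 CG dinucleotides (Mitf), 5 (Cald1), 1 (Clec4b1) and 0 (Reg1). Cul1 is the exception among those printed, with 38, in a region that ends within the printed bases. Around another Cul1 start site, 300 bases (chr6:47453482-47453781) lie wholly inside that region and hold 5. The shared promoters hold 35 CG dinucleotides at Hoxa13 and 22 at Gata2. These 2 are not typical of shared regions. Over the 654 promoter windows of 300 bases that shared regions overlap, the median was 10, and it was 4 over the members' 59.

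Counts were shallow per member. The 9 H3K27me3 libraries held 1818647 to 3134799 reads over all union regions, of which 33852 to 74579 fell in the members, with a median of 5 to 12 reads per member. The 4 total H3 libraries held 525847 to 736566 reads, with 18203 to 25323 in the members and a median of 3 to 4 per member. Levels are given as CPM, the counts scaled to the union-region reads of the library and its TMM factor, and per kb of region where regions are compared. Errors are SDs between libraries. The promoters of 10 ESC genes fixed as markers had a median of 5.73 CPM of H3K27me3 in WT and 5.80 in DKO, over promoter reads. Those of 8 genes of differentiated lineages had 172 and 157.5 CPM, and those of 9 fibroblast genes 8.74 and 11.8. In WT the ESC genes ranged from 0 to 97.7 CPM, with Klf4 the highest, and the fibroblast genes from 0.322 to 90.5. Genes of differentiated lineages ranged from 9.55 to 398 CPM in WT, so the lists overlapped. H3K27me3 at a promoter reads the mark and not expression, so these values check the labelled cell type only in part.

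All union regions of chromosome 6 together ran from position 3181482 to 149568732. Over that span the members occurred in every 10 Mb bin, at 3.86 per 100 kb. Their number was highest 30 to 20 Mb before Rosa26, with 607 in that 10 Mb bin, and lowest at the start of the chromosome, with 128 in the bin 110 to 100 Mb before Rosa26. Shared regions rose more steeply, from 119 in the first bin to 1337 in the 10 Mb after Rosa26, and WT-specific regions from 84 to 1166 in the 10 Mb before it. Members therefore made up 38.7% of all regions in the first bin and 17.3% in the 10 Mb before Rosa26. Among genotype-specific regions alone, the members' share was 60.4% in the first bin, 64.1% from 90 to 80 Mb before Rosa26, 29.9% in the 10 Mb before it and 40.2% in the 10 Mb after it. In 12 of the 15 bins, WT-specific regions outnumbered the members. Off chromosome 6 the order was the other way, with 13184 DKO-specific against 3200 WT-specific regions.

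**Figure D1:**
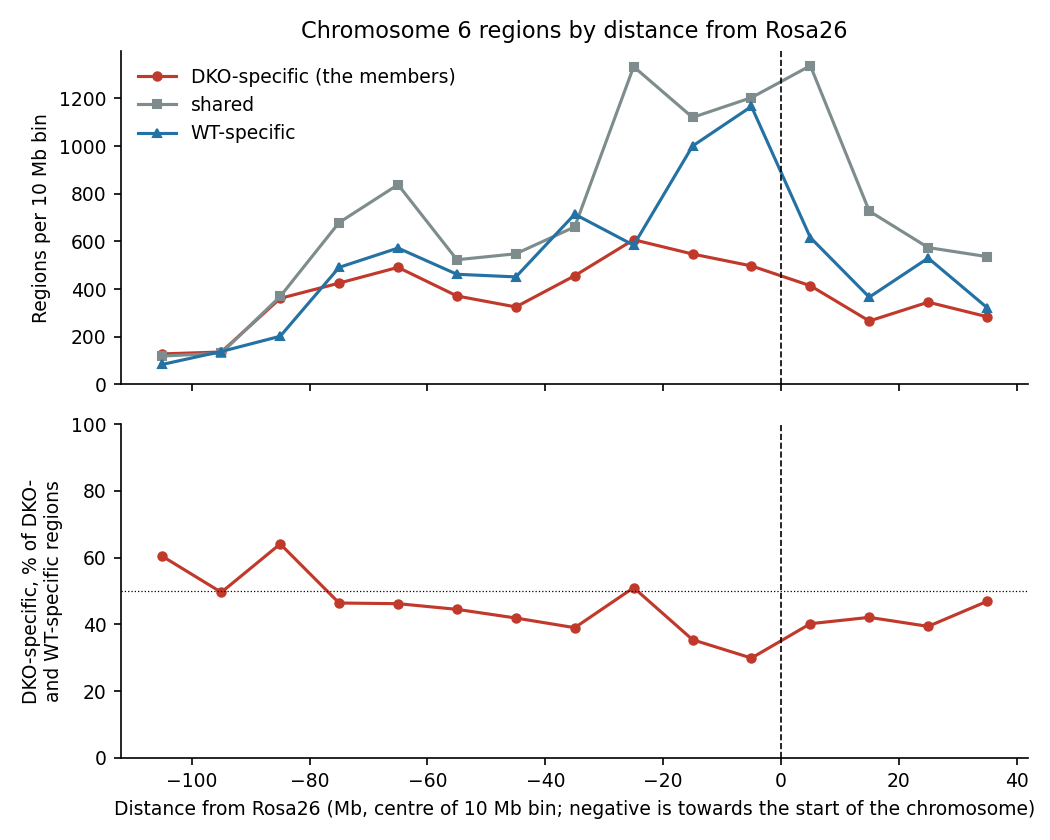
Regions of chromosome 6 in 10 Mb bins by distance from Rosa26 (dashed line, in Mb, negative towards the start of the chromosome). The upper plot gives the number of DKO-specific, shared and WT-specific regions per bin, and the lower plot the members as a percentage of both genotype-specific classes, with a dotted line at 50%. Members peak at 607 regions 30 to 20 Mb before Rosa26, and their share of specific regions is lowest, at 29.9%, in the bin that ends at Rosa26.

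The members were short. Their median length was 420 bp, with quartiles of 325 and 569 bp and a range from 267 to 2565 bp. Shared regions of chromosome 6 had a median of 1075 bp, WT-specific ones 434 bp and DKO-specific regions of chromosome 11 507 bp. Of the members, 1980 (35.0%) reached 500 bp, 240 (4.25%) reached 1000 bp and 5 reached 2000 bp. The longest, 2565 bp at chr6:85385676-85388240, lies over the long noncoding RNA gene 4933423K11Rik, 10992 bp from Rab11fip5, an effector of vesicle recycling. Next are 2451 bp at chr6:75799216-75801666, far from any protein-coding gene, 2118 bp in Sfxn5, a mitochondrial carrier gene (chr6:85285405-85287522), and 2113 bp at chr6:47405731-47407843, 45889 bp from Cul1.

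Members lay near the shared regions. The median gap to the nearest shared region was 2385 bp, with quartiles of 810 and 7318 bp. A gap under 2 kb was found for 2565 members (45.4%), and 679 of them had a shared region within 2 kb on both sides. Under 1 kb there were 1675 members (29.6%), and under 5 kb 3821 (67.6%). WT-specific regions of the same chromosome had a similar spacing, with a median of 2348.5 bp and 46.2% under 2 kb. DKO-specific regions of chromosome 11 lay farther from shared regions (median 6389 bp, 30.7% under 2 kb), as did those of the other chromosomes (4715 bp, 36.7%). Beyond 50 kb lay 183 members (3.24%), against 16.1% on chromosome 11 and 18.6% on the others. Chromosome 6 is also denser in shared regions, with 10698 of the 28174 in the union, and the part of that density in the gaps was not tested.

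**Figure D2:**
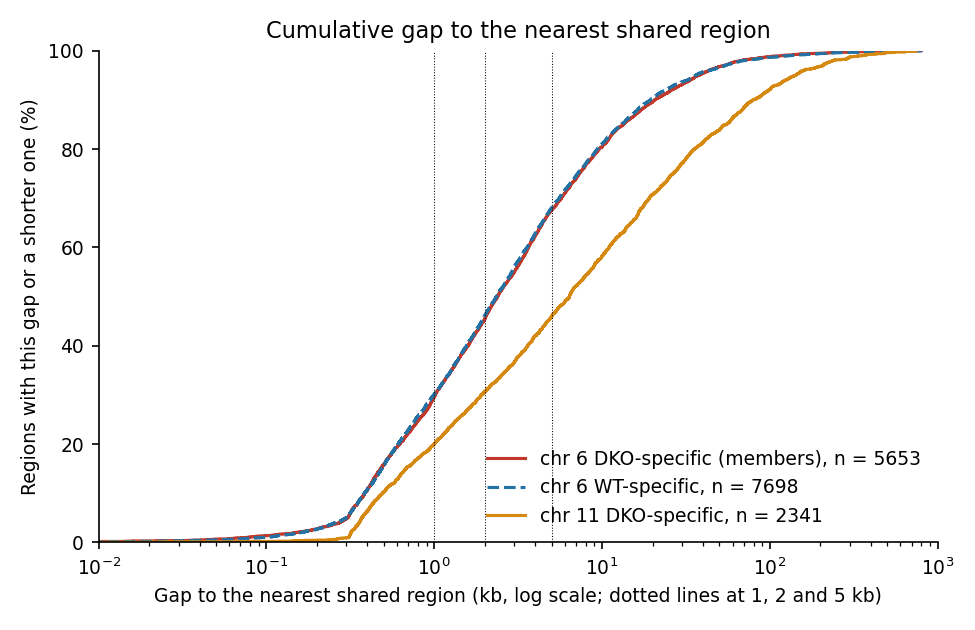
Cumulative percentage of regions against the gap to the nearest shared region (kb, log scale, with dotted lines at 1, 2 and 5 kb), for the members, the WT-specific regions of chromosome 6 and the DKO-specific regions of chromosome 11. The curves of the chromosome 6 classes lie on each other, crossing 2 kb at 45.4% and 46.2%, and that of chromosome 11 crosses it at 30.7%.

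The members were also mixed with WT-specific regions. The nearest WT-specific region was at a median of 3747 bp, and 35.0% of members had one within 2 kb. The same share was 1.79% on chromosome 11 and 7.57% on the other chromosomes, where WT-specific regions are few. In the order along the chromosome, 27.6% of the members' neighbours were other members, 38.9% were shared and 33.5% WT-specific, while these classes make up 23.5%, 44.5% and 32% of the regions of chromosome 6. Of the 4093 runs of consecutive members, 3042 had 1 member, so 53.8% of members had no member next to them. There were 45 runs of 5 or more, which held 260 members.

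The longest run held 14 members over 66.11 kb (chr6:49110745-49176856), across Malsu1, a mitochondrial ribosome assembly gene, and Igf2bp3, an RNA-binding protein gene. Its summed H3K27me3 level was 4.48, 6.27, 4.89, 7.8 and 6.55 CPM per kb in WT replicates 1 to 5. In DKO replicates 1 to 4 it was 7.93, 7.45, 7.73 and 10.3 CPM per kb. WT replicate 4 lay within the DKO range, so the groups overlapped. Total H3 over this run was 14.4 and 13.1 CPM per kb in WT and 11 and 13 in DKO. There were 2 runs of 8 members. One lay over Snd1, an RNA-binding nuclease gene (chr6:28840349-28906686), with 5.5 to 6.24 CPM per kb of H3K27me3 in WT and 7.33 to 10.4 in DKO. The other lay between genes (chr6:31819594-31880612), with 5.03 to 6.89 CPM per kb in WT and 6.68 to 9.19 in DKO. At Snd1 the groups did not overlap, and between the genes they did.

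Close to the share of shared regions, 2757 members (48.8%) overlapped a protein-coding gene of RefSeq. The share was 49.1% for shared regions, 45.9% for WT-specific regions and 42.2% for the bases spanned. A long noncoding RNA gene was overlapped by 592 members (10.5%). Of the 1126 protein-coding genes of chromosome 6, 447 held a member and 73 held 10 or more. Among the genes with many members were some of the longest. Cntnap2, a neurexin-like adhesion gene, held 91 over 2241 kb, Ctnna2, a neuronal catenin gene, 81, and Cntn4, a contactin gene, 73. The 17 protein-coding genes of at least 500 kb that held regions had a median of 5.11 members per 100 kb (1.11 to 7.38) and 730 members in all. Among the genes with most members, Plxna4, a semaphorin receptor gene, held 11 per 100 kb and Exoc6b, an exocyst subunit gene, 9.96. RefSeq exon and intron positions were not used here.

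By gene list, members were absent from some groups. None of the 12 genes of the HoxA list, whose products pattern the body axis, held a member, and each of the 12 overlapped a shared region, the one at Hoxa13 spanning 133062 bp. Of 23 other developmental transcription factor genes of chromosome 6, 11 held 138 members and 21 held a shared region. Most of these members lay in the long genes Foxp1 (44), Creb5 (35) and Sox5 (28), while Dlx5, Dlx6, Gata2, Tlx2, Lbx2 and Bhlhe40 held shared regions and no member. Etv6, a transcription factor of blood formation, held 8 members against 2 shared regions. Of 18 imprinted genes, 9 held 19 members (1.93 per 100 kb), 7 of them in Asb4. Of 48 long neuronal and adhesion genes, 41 held 1019 members (4.81 per 100 kb). Of 432 receptor genes in clusters, 32 held 49 members (2.63 per 100 kb). Of the 39 miRNA hairpins of chromosome 6 in RefSeq, 0 were overlapped.

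The Nanog list, genes around the pluripotency factor, had members in 3 of its 7 genes found on chromosome 6. Slc2a3, a glucose transporter gene, held 5, Foxj2, a forkhead factor gene, 1, and Nanog itself 1, of 476 bp (chr6:122707879-122708354). At the member in Nanog, H3K27me3 was 0.845, 3.93, 5.51, 2.96 and 5.15 CPM in WT replicates 1 to 5 and 2.03, 2.63, 4.74 and 4.03 in DKO replicates 1 to 4. These rest on 2 to 16 reads per library. The groups overlapped fully, with a WT mean of 3.68 ± 1.88 (SD, n = 5) and a DKO mean of 3.36 ± 1.24 (SD, n = 4), although the region is listed as DKO-specific.

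Few members touched a promoter. Among 1865 RefSeq windows of chromosome 6, each from 250 bases before to 50 after a start site, members overlapped 59 windows of 57 genes, 24 of them protein-coding. These came from 56 members (0.991%), against 4.81% of shared regions and 0.714% of WT-specific ones. The ratio of observed to expected CG dinucleotides, which is high in CpG islands, had a median of 0.235 in the members' windows. In windows overlapped by shared regions it was 0.467, in those of WT-specific regions 0.239, and in all 1865 windows 0.351. It was above 0.6 in 6 of the 59 windows (10.2%), against 37.2% in shared windows, 1.79% in WT-specific ones (1 of 56) and 32.3% in all windows. A CG on either strand was present in 91.5% of the members' windows and in 93.1% of all windows of this length. The 6 windows were those of Mitf, Dcp1b (an mRNA decapping gene), the noncoding genes E230016M11Rik, Gm17089 and Gm52888, and the printed Cul1 start site. The other Cul1 window had a ratio of 0.251.

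Among the printed promoters, the member at Cul1 (chr6:47453021-47454221, 1201 bp) had 7.6, 8.42, 3.51, 4.81 and 5.47 CPM of H3K27me3 in WT replicates 1 to 5 and 8.54, 13.2, 7.27 and 9.07 in DKO replicates 1 to 4. Of its DKO libraries, 3 lay above every WT library. The member at Cald1 (1373 bp) had 5.01 to 9.97 CPM in WT and 6.15 to 13.8 in DKO, with 1 DKO library above every WT library. At Mitf (514 bp) the ranges were 1.68 to 3.51 in WT and 2.21 to 4.03 in DKO, and at Clec4b1 (643 bp) 2.0 to 6.29 and 2.21 to 8.14. At Reg1 (334 bp) both means were 3.34 CPM, ± 1.75 in WT (SD, n = 5) and ± 2.15 in DKO (SD, n = 4). The WT and DKO libraries overlapped at each of these 5 members.

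Over all members together, the H3K27me3 level was 5.53, 6.88, 6.51, 7.36 and 7.16 CPM per kb in WT replicates 1 to 5. It was 8.35, 7.90, 8.28 and 9.07 CPM per kb in DKO replicates 1 to 4. Every DKO library was above every WT library, and WT replicate 1 was the lowest. The means were 6.688 ± 0.724 (SD, n = 5) and 8.401 ± 0.491 (SD, n = 4), a ratio of 1.26. The clone 4 library, DKO replicate 1, lay inside the range of the clone 13 libraries. The ratio was 1.52 for the DKO-specific regions of chromosome 11 and 1.35 for those of the other chromosomes. Shared regions of chromosome 6 went the other way, from 10.28 to 9.183 CPM per kb (ratio 0.893), and WT-specific ones from 9.05 to 5.965 (0.659).

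Against the shared regions of the same library, the members stood at 0.649 ± 0.023 of their level in WT (SD, n = 5, 0.62 to 0.672). In DKO they stood at 0.914 ± 0.02 (SD, n = 4, 0.899 to 0.94). The groups did not overlap on this scale, and WT replicate 1 was again the lowest, at 0.62. Both lists rest on H3K27me3 in the 2 genotypes, and the shared level itself was lower in DKO (ratio 0.893). This separation therefore describes the lists. WT-specific regions stood at 0.877 ± 0.048 of the shared level in WT (SD, n = 5) and at 0.649 ± 0.021 in DKO (SD, n = 4). In both genotypes, then, each specific class lay below the shared regions in mean level per kb. Of the union-region counts, the members took 1.45% in WT replicate 1, 1.77% to 2.02% in the other WT libraries and 2.21% to 2.60% in DKO.

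**Figure D3:**
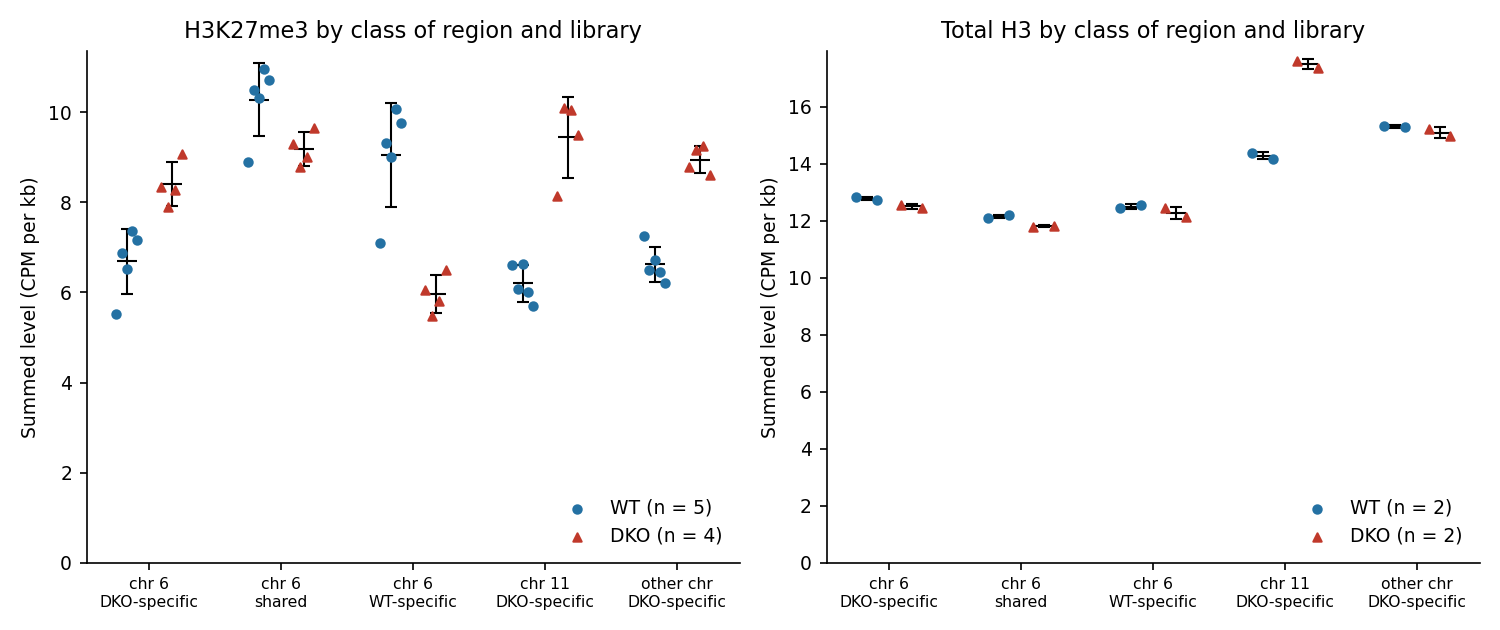
Summed level of each class of region (CPM per kb) in every library, H3K27me3 on the left and total H3 on the right, with the mean and SD in black. In the members H3K27me3 runs from 5.53 to 7.36 in WT and from 7.90 to 9.07 in DKO, while total H3 lies at 12.45 to 12.82 in all 4 libraries and is raised in DKO in the chromosome 11 class alone among the 5 classes drawn.

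Along the chromosome, the H3K27me3 level of the members was compared in 10 Mb bins. In DKO the mean per 10 Mb bin lay between 8.22 and 8.64 CPM per kb. In WT it was 6.29 ± 0.418 (SD, n = 5) in the bin 110 to 100 Mb before Rosa26 and 7.0 ± 0.814 in the 10 Mb after Rosa26. In these bins WT replicates 1 to 5 had 5.83, 6.77, 5.91, 6.62 and 6.31 CPM per kb before Rosa26 and 5.77, 6.9, 6.89, 7.96 and 7.45 after it, so 4 of the 5 libraries were higher after it and WT replicate 1 was not. This difference was not tested. The ratio of DKO to WT was 1.32 in the first bin and 1.2 in the 10 Mb before Rosa26. It stayed between these values in every bin.

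**Figure D4:**
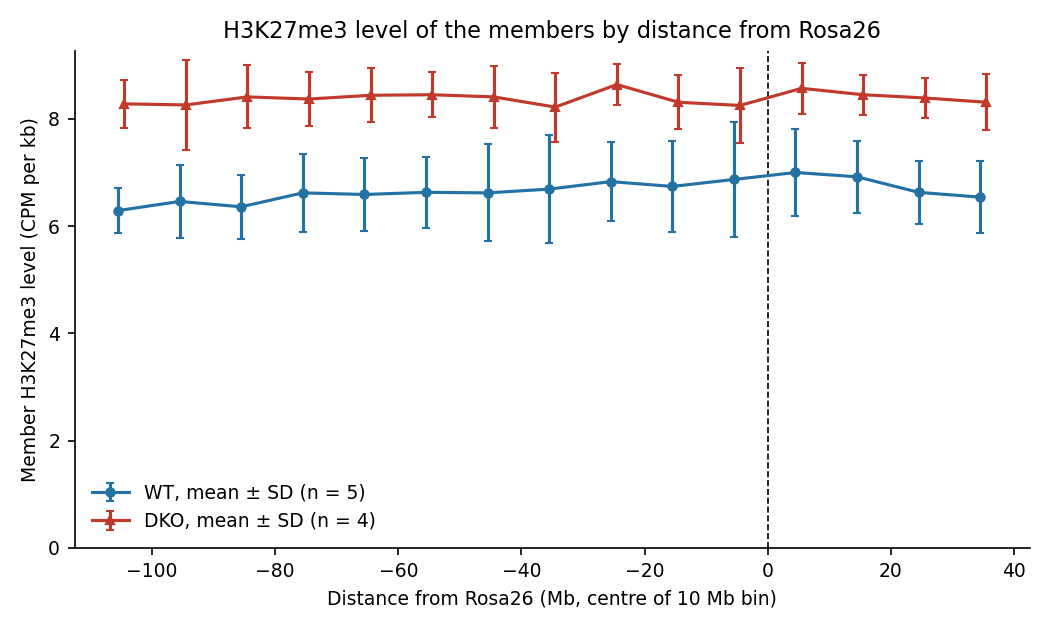
Mean H3K27me3 level of the members (CPM per kb) with SD in 10 Mb bins by distance from Rosa26 (dashed line), for 5 WT and 4 DKO libraries. The DKO means lie between 8.22 and 8.64 and above the WT means in all 15 bins.

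Split by gap, length and gene content, the members showed similar levels. Members within 1 kb of a shared region had 6.88 ± 0.719 CPM per kb in WT (SD, n = 5) and 8.5 ± 0.472 in DKO (SD, n = 4). Those more than 50 kb away had 6.3 ± 0.566 and 8.38 ± 0.517. The ratio of DKO to WT was 1.24 in the former and 1.33 in the latter. In protein-coding genes and outside them the ratio was 1.26. Members under 500 bp had 8.86 ± 0.589 CPM per kb in DKO and those of 1000 bp or more 7.79 ± 0.429, with total H3 at 12.8 and 11.8 in the same order, so the mark and total H3 were both lower per kb in the long members.

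Taken one by one, 2123 of the 5653 members (37.6%) passed the filter on low counts in the H3K27me3 fit. The quasi-likelihood test of edgeR put 14 of them higher in DKO at an adjusted p under 0.05 and 0 lower. Over all 40418 regions tested, 2.16% were called higher and 1.88% lower. At an unadjusted p under 0.05 in edgeR, 222 of the 2123 members were higher and 0 lower. Over all 40418 regions tested, 3806 were higher and 4094 lower by that cut. DESeq2, which gave an adjusted p to 32 members, called 1 higher and 0 lower (2.05% and 2.7% of all regions it tested). The median log2 fold change of the members in the fit was 0.30, beside -0.02 for all regions tested, with a median SE of 0.31. It was below 0 for 184 of them (8.67%). Over all 5653 members, 182 (3.22%) had all 4 DKO libraries above all 5 WT libraries, against 3.24% of all union regions, 16.8% of the DKO-specific regions of chromosome 11 and 7.18% of those on the other chromosomes. As the selection used this contrast, these counts describe the members. Members could also pass the filter on low counts through their DKO libraries alone. Without DKO replicate 3, 3 members were called higher, beside 0.769% of all regions tested, and without WT replicate 1 there were 19, beside 3.53%.

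Most of the 14 members called higher are named here, because of that call. They lie in Asb4 (a substrate receptor of a ubiquitin ligase), Snd1, Il23r (an interleukin receptor), Mogs (a glycan-trimming glucosidase), Atp6v1b1 (a proton pump subunit), Wnt5b (a Wnt ligand) and Plbd1. Others lie nearest to Col1a2 (a collagen), Met (the hepatocyte growth factor receptor), Exoc4 (an exocyst subunit), Aqp1 (a water channel), Ctnna2 at 1079971 bp and Rybp (a Polycomb complex subunit) at 104143 bp. In Wnt5b, a member of 1979 bp (chr6:119476779-119478757) had 11.4, 10.7, 12.5, 12.6 and 12.9 CPM in WT replicates 1 to 5. It had 15.5, 18.4, 24.3 and 17.5 CPM in DKO replicates 1 to 4. No WT library reached the lowest DKO library. Its log2 fold change was 0.66 (SE 0.19), and total H3 there was 23.5 and 27.1 CPM in WT and 15.3 and 29.9 in DKO.

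In Asb4, an imprinted gene, a member of 825 bp (chr6:5390529-5391353) had 5.49, 3.37, 6.01, 3.7 and 3.22 CPM in WT and 9.36, 8.34, 8.53 and 8.06 in DKO, with a log2 fold change of 1.00 (SE 0.27). Here too the groups did not overlap. The largest fold among the 2123 fitted members was 1.55 on the log2 scale (SE 0.43), at a member of 415 bp (chr6:33994101-33994515) that lies 355 bp from a shared region and 20122 bp from Exoc4. It had 2.11, 0.561, 3.01, 1.48 and 0.643 CPM in WT and 4.07, 5.27, 4.74 and 4.03 in DKO, from 1 to 6 reads per WT library and 10 to 15 per DKO library. With a minimum count of 10, this member passed the filter through its DKO libraries alone, so its rank describes the choice of members. The next were in Irak2, a kinase gene of Toll-like receptor signalling, at 1.13 (SE 0.38), near Met at 1.11 (SE 0.33) and near Snd1 at 1.09 (SE 0.36). Those in Irak2 and near Snd1 did not pass the adjusted test, with adjusted p of 0.0677 and 0.0551 in edgeR. The smallest fitted fold was -0.38 (SE 0.35), in Grm8, a metabotropic glutamate receptor gene, with 2.53 to 7.4 CPM in WT and 1.58 to 6.1 in DKO.

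Total H3, which the selection did not use as far as the labels say, was slightly lower over the members in DKO. The design was too small to reach a p of 0.05. The summed level of the members was 12.82 and 12.74 CPM per kb in WT replicates 1 and 2 and 12.57 and 12.45 in DKO replicates 1 and 2, a ratio of 0.979. The ratio was 0.972 for the shared and 0.983 for the WT-specific regions of chromosome 6, so the members did not stand alone in this. Both DKO values were below both WT values. The members held 3.546% and 3.521% of the union-region H3 counts in WT and 3.462% and 3.438% in DKO. The difference was -0.0838 percentage points, with an exact two-sided permutation p of 0.333, the smallest that 2 against 2 libraries can give. It was -0.623 points for the shared and -0.094 for the WT-specific regions of chromosome 6, and -0.149 for the DKO-specific regions off chromosomes 6 and 11, each with the same p. For the DKO-specific regions of chromosome 11 it was 0.479 points, again with that p. All regions of chromosome 11 held a mean of 8.092% of the union-region H3 counts in WT and 9.972% in DKO. The part of this rise in the lower shares elsewhere was not tested. Among the regions off chromosomes 6 and 11 as denominator, the values overlapped, with 5.628% and 5.604% in WT and 5.608% and 5.549% in DKO.

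In the H3 fit, 211 of the 5653 members (3.73%) passed the filter on low counts. The edgeR test called 0 higher and 0 lower at an adjusted p under 0.05, beside 0.00528% higher and 0.0158% lower over all 18938 regions tested, and DESeq2 called 0. At an unadjusted p under 0.05 there were 5 members higher and 13 lower, beside 3.42% and 2.75% of all regions tested. Their median log2 fold change was -0.04, the median SE 0.49, and the smallest adjusted p 0.573 in edgeR, so a difference of this size at a single member was not detectable at this depth. Relative to total H3, the members' H3K27me3 was 0.523 in WT and 0.672 in DKO, as the ratio of mean levels. Shared regions of chromosome 6 had 0.846 and 0.778, and WT-specific ones 0.724 and 0.485. In the DKO-specific regions of chromosome 11 total H3 itself was 1.23 times higher in DKO, which came from clone 13 alone, while for the members that ratio was 0.979.

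Per kb, the highest DKO level of all members was 31.9 CPM per kb, in a member of 272 bp in the noncoding gene Gm52861 (chr6:47740413-47740684). Its libraries ranged from 4.07 to 11 CPM in WT and from 5.38 to 11.9 in DKO and overlapped, with 2 DKO libraries above every WT library. The next, at 15.6, was a member of 535 bp in Atp6v1b1 (chr6:83754516-83755050), 656 bp from a shared region. It had 2.11, 5.61, 2.51, 4.81 and 5.47 CPM in WT and 6.91, 9.66, 9.48 and 7.39 in DKO, with no overlap, and a log2 fold change of 1.00 (SE 0.28). The other 4 of the highest 6 lay near Gm40363 and Fam136a, in Creb5 and near Skap2, at 14.1 to 15.2 CPM per kb, with lengths of 267 to 283 bp. Apart from the one in Atp6v1b1, these 6 are thus at or near the shortest length of a member, 267 bp. Total H3 per kb was also higher in short members (12.8 in DKO under 500 bp, 11.8 at 1000 bp or more). This ranking is therefore not one of the mark alone. The members farthest from any shared region lie in the immunoglobulin kappa locus Igk, 802255 and 451096 bp away, at 632960 bp with Pot1a, a telomere protein gene, as the nearest gene, and at 518921 bp near Klra7, a natural killer cell receptor gene. At these 4 the DKO mean was 2.49 to 4.15 CPM and the WT mean 1.64 to 3.45, and of these only at the one nearest Pot1a were all 4 DKO libraries above every WT library.

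At Rosa26 itself, 1 member of 444 bp (chr6:113069055-113069498) lies inside the noncoding gene Gt(ROSA)26Sor (chr6:113067428-113077244), which also holds 1 WT-specific region and no shared region. H3K27me3 there was 3.8, 1.12, 4.51, 1.48 and 4.18 CPM in WT replicates 1 to 5 and 2.44, 4.83, 5.06 and 6.38 in DKO replicates 1 to 4. The lowest DKO library, of clone 4, lay inside the WT range, and the 3 of clone 13 lay above it. The log2 fold change was 0.62 (SE 0.35), with an adjusted p of 0.311 in edgeR. Total H3 was 9.41 and 10.0 CPM in WT and 9.53 and 8.15 in DKO. The next members, 7.35 and 17.09 kb away in Thumpd3, a tRNA methyltransferase gene, had 3.17 ± 1.03 and 2.52 ± 0.899 CPM in WT (SD, n = 5) and 3.69 ± 0.437 and 3.25 ± 2.3 in DKO (SD, n = 4). The fourth, 33.9 kb away in Setd5, a SET domain gene, had 1.63 ± 1.07 and 2.03 ± 0.994. At these 3 members the groups overlapped. Of the 26 genes listed as neighbours of Rosa26, 12 held 34 members, against 172 shared regions.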

How the data were processed

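ChIP-seq libraries of H3K27me3 (5 WT, 4 DKO) and total H3 (2 WT, 2 DKO) were analysed. The deposited region tables hold raw read counts, made by the authors with featureCounts 2.0.3, per the file headers. Bowtie2, MACS2, bedtools and Subread are also named in the submitters' processing notes, with build mm10. The sources used here do not say how regions were called or merged, or which parental alleles the counts include. Every library name in the region tables carries the tag b6, with a meaning not given there. The 3 region tables share their rows, so WT and DKO libraries were fitted together.

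Members were the rows of chromosome 6 in the deposited DKO-specific list. The members and the gene lists were chosen with earlier results of these data known. Counts were tested over the whole table with edgeR 4.0.16 in R 4.3.3 (quasi-likelihood F test, two-sided, no covariate), after filterByExpr (minimum count 10, minimum total 15) and TMM scaling, with Benjamini-Hochberg adjustment. The SE is the log2 fold change over the root of F. DESeq2 1.42.0 was an alternative. Shares of total H3 counts were compared by exact permutation over 6 groupings. Gaps are the bases between regions. Genes and promoter windows were RefSeq, GRCm38.p6. Named regions were the 6 of highest DKO level per kb, the 4 longest, the 4 nearest Rosa26, the 4 farthest from shared regions, the 4 largest and 2 smallest fitted folds, and members at promoters of listed genes; others were named after their values were seen. One gene is not reported here. The scripts were tested on simulated counts. Tables and figures used Python 3.11.15, pandas 2.3.3, scipy 1.17.1 and matplotlib 3.10.9.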

Additional observations from a re-analysis of the deposited data

Results flagged for a closer look

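Among 118 groups of 4 or 5 libraries examined (the summed members, their 10 Mb bins and the named regions), 4 had 1 library far from the others by Dixon's test, where chance flags about 1 in 20 groups. In the bin 110 to 100 Mb before Rosa26, the member level was 8.94 CPM per kb in DKO replicate 4 and 8.01 to 8.14 in the other DKO libraries. In WT replicate 1 it was 4.94 in the bin 40 to 30 Mb before Rosa26 (6.83 to 7.43 in the other WT libraries) and 5.27 in the bin 20 to 10 Mb before it (6.8 to 7.36). At the member near Met, WT replicate 3 had 5.01 CPM and the other WT libraries 2.11 to 2.81.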

How the results depend on the processing

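The number of members called higher for H3K27me3, 14 as reported beside 2.16% of all regions tested, was 30 (beside 3.51%) with library totals as the scale, 7 (1.3%) with TMM factors from regions off chromosomes 6 and 11, 31 (2.39%) with TMM factors from the shared regions of chromosome 6 (an alternative chosen after seeing the data), 21 (1.34%) with no filter, 1 (2.05%) in DESeq2, 17 (2.49%) with the library set as a term, 0 (0.0703%) among the libraries without Old or New, 4 (0.865%) among those with them and 7 (1.05%) with WT replicates 1, 4 and 5 as WT. Leaving out 1 library in turn gave 3 (0.769%) to 19 (3.53%). In all of these 0 members were lower, and the members' median log2 fold change stayed above 0, reaching 0.45 with the chromosome 6 shared regions as the scale, which moved the median of all regions from -0.02 to 0.13. The 14 called members stayed higher in DKO in every alternative that tested them and passed the threshold in 5 to 15 of the 18 or 19 tried. Both the members and these 14 were picked by this same contrast, and the alternatives reuse the same libraries. The constant direction therefore describes that choice and is no further support. For total H3, 0 members were called in any alternative. The median, -0.04 as reported, was -0.014 with TMM off chromosomes 6 and 11, 0.0143 with TMM from the chromosome 6 shared regions, and -0.16 to 0.0122 with 1 library left out, so its sign is not fixed. The H3 share stayed lower in DKO under each alternative. The share of members near a shared region was 29.6% at 1 kb, 45.4% at 2 kb and 67.6% at 5 kb, and the share in protein-coding genes was 48.4% by region midpoint.

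With the replicate number as a block, 8 members were called higher for H3K27me3, beside 1.16% of all regions tested, and 0 for total H3. That fit leaves out WT replicate 5, and without that library alone the count was also 8 (1.06%). Same-numbered libraries did not deviate together (correlations of -0.0279 to 0.0703 for H3K27me3 and -0.0108 for total H3). For H3K27me3, unlike-numbered libraries had -0.148 to 0.134. Those that share Old or New in their names have unlike numbers, with 0.00565 for Old and 0.0888 for New. Same-numbered total H3 libraries share a letter in their names, with a meaning not given. With 2 total H3 libraries per genotype, the correlations differ only in sign, so whether those libraries were paired cannot be told. With a median of 5 to 12 H3K27me3 reads and 3 to 4 total H3 reads per member and library, single members are imprecise.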
